A study of Homo sapiens with 6 samples.

Results

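The genes described here are 10 genes of redox and iron handling: the NRF2 regulators NFE2L2 and KEAP1, the NRF2 target genes NQO1, HMOX1, GCLC and GCLM, the thioredoxin genes TXNRD1 and SRXN1, and the ferritin genes FTH1 and FTL. They were taken by symbol and matched to the Ensembl identifiers of the count files, which list 78932 genes. All 10 were found, and 9 passed the filter on low counts and were tested among 19086 genes. SRXN1 had no counted read and was not tested.

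The cells were KARPAS-45, an established human line of T-cell acute lymphoblastic leukaemia that carries a KMT2A-FOXO4 fusion, labelled as leukaemic blasts of bone marrow. RNA was sequenced from 3 control libraries (genotype WT, untreated) and 3 libraries of MEF2C-OE cells (untreated apart from the vector), which carried a lentivirus with the transcription factor MEF2C behind the EF1A promoter and linked to mCherry. Sorting of the mCherry-positive MEF2C-OE cells took place 120 hours after they were transduced. For the control cells the sources used here state neither a vector nor a sort, so effects of transduction, mCherry and sorting cannot be told apart from those of MEF2C. The replicates are labelled technical, and p-values therefore measure only the spread between these libraries.

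NRF2, the product of NFE2L2, is a transcription factor that is held at low levels by KEAP1, an adaptor that hands it to a CUL3 ubiquitin ligase. When KEAP1 is modified by electrophiles or oxidants, NRF2 is spared, pairs with small MAF proteins and binds antioxidant response elements in the promoters of genes for glutathione synthesis, thioredoxin recycling, quinone detoxification and iron storage. Much of this control acts on protein stability, which RNA levels do not show. The cystine transporter xCT, encoded by SLC7A11, supplies the cysteine that limits glutathione synthesis and is itself a known target of NRF2 and of the stress factor ATF4. The comparison asked whether the redox genes moved with SLC7A11 in MEF2C-OE cells.

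The libraries held 48218497 to 56890745 reads in genes. MEF2C had 10, 1 and 0 reads in the control libraries and 40, 29 and 41 in the MEF2C-OE libraries (log2 fold change 3.28, SE 0.60, edgeR quasi-likelihood adjusted p = 1.5e-05), and 5.83 without control replicate 1, which held most of the control reads. Its level in MEF2C-OE libraries was low, from 0.596 to 0.727 CPM. All 10 T-lineage markers had at least 1 CPM (counts per 1000000 reads in genes), with summed levels of 3000.6 to 3027.3 CPM in control and 2487.0 to 2608.1 CPM in MEF2C-OE libraries. Of 15 markers of other cell types, MS4A1, HBB and EPCAM were at 0 and 3 had at least 1 CPM: CD79A, COL1A1 and PECAM1. The summed level of these 15 was 84.5 to 91.8 CPM in control and 81.1 to 84.9 CPM in MEF2C-OE libraries, and their part in the results was not tested. In bulk RNA, fewer cells of a type and less RNA per cell cannot be told apart.

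Sequences of the genes on which the results turn are shown first, because the results below compare genes that encode subunits of the same enzyme or of ferritin. Stretches of 60 bases upstream of the RefSeq start (GRCh38.p14, gene strand) are given for both glutamate-cysteine ligase genes and for TXNRD1. Capitals mark matches on either strand to TGACNNNGC, the core letters of the antioxidant response element, which can overlap AP-1 sites (TGANTCA). Bases are numbered back from the start, where -1 is the last base before it.
GCLM, chr1:93909456-93909515, minus strand, bases -85 to -26: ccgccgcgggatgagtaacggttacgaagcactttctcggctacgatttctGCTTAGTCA
GCLC, chr6:53545130-53545189, minus strand, bases -88 to -29: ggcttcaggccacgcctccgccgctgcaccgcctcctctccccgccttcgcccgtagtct
TXNRD1, chr12:104215629-104215688, plus strand, bases -150 to -91: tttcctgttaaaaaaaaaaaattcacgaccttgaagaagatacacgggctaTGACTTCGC

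The RefSeq promoter table (250 bases before to 50 after each start) held 8 of the 10 genes in 11 windows, and HMOX1 and FTH1 were not matched. The letters occurred in 4 of the 11 windows, those of GCLM, TXNRD1 (2 windows) and KEAP1, against 13.3% of all 35116 windows. The GCLM match spans bases -34 to -26 and is the reverse complement of the motif. TXNRD1 had a further match at -8 to 1 of the same window and 1 at -102 to -94 of its downstream start, and KEAP1 had matches at -54 to -46 and -31 to -23 of 1 start. A match is a description of these letters and no evidence of binding. Bases more than 250 before a start were not searched. A window without a match, as for GCLC, therefore does not show that the gene lacks the element.

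For ferritin the shared element lies in the RNA. Iron regulatory proteins bind a hairpin, the iron response element, in the 5′ untranslated region of both ferritin mRNAs and hold back translation when iron is scarce, a step that RNA levels do not show. The 28 bases around its loop are given from GENCODE 29 transcripts, with the conserved CAGTG letters of the 6-base loop in capitals; the next base is the last, variable base of that loop.
FTH1, chr11:61967574-61967601, minus strand: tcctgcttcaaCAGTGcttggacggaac
FTL, chr19:48965336-48965363, plus strand: tcttgcttcaaCAGTGtttggacggaac
The elements were identical at 26 of 28 bases. The differences from FTH1 to FTL, counted from the 5′ end of the printed stretch, were C3T, outside the loop, and C17T, at its last base.

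Of the 9 tested genes, NFE2L2, NQO1, GCLM, TXNRD1 and FTH1 rose, FTL fell, and KEAP1, GCLC and HMOX1 did not pass the test (edgeR quasi-likelihood test, adjusted p under 0.05 over all genes). The background in this comparison was high. Of all genes tested, 41.0% were called, 20.8% as higher and 20.2% as lower, so a call alone does not set a gene apart. Among the 14025 genes with at least 1 CPM in 3 libraries, 7584 were called. In 7 of the 9 genes the control and MEF2C-OE values were fully separate, against 48.8% of all genes. With the trend on GC content and transcript length removed (described below), 38.0% of all genes were called, 19.7% as higher and 18.3% as lower, and of the 9 genes 5 were higher (KEAP1 in place of TXNRD1) and FTL was lower. The median log2 fold change was 0.06 for the 9 genes and -0.01 for all genes. Against a threshold of 1.2-fold, only FTL of the 9 genes was called (adjusted p = 0.013), where 10.2% of all genes were.

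**Figure D1:**
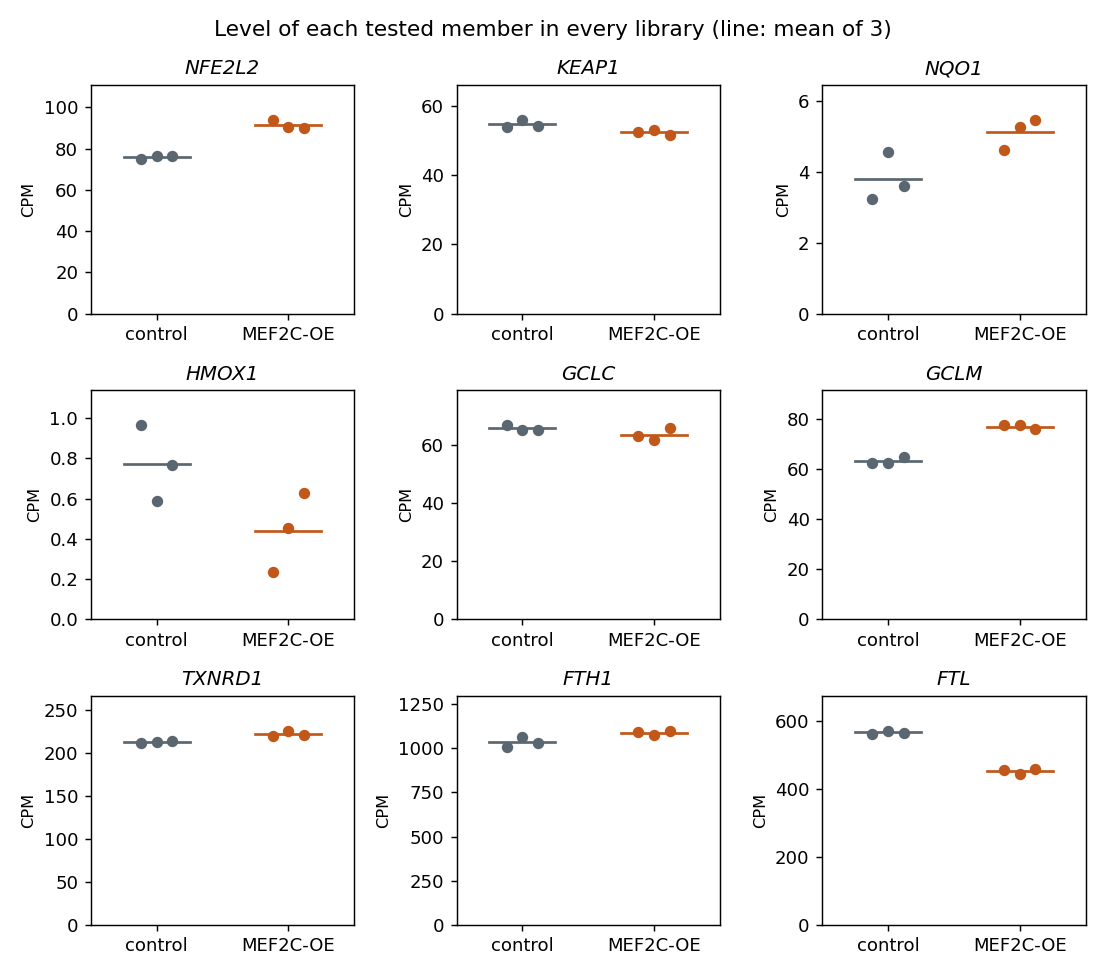
Level of each tested gene in CPM (vertical axis from 0) in the 3 control (grey) and 3 MEF2C-OE (orange) libraries; points are libraries and lines are means of 3. The NFE2L2, GCLM and FTL groups do not overlap, with folds of 1.2, 1.22 and 0.8, whereas the GCLC and HMOX1 groups overlap.

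Per length, the ferritin genes stood far above the others. Levels divided by the length of the principal annotated transcript were 841.6 ± 24.3 CPM per kilobase for FTH1 and 643.5 ± 5.07 for FTL in control libraries (SD, n = 3). TXNRD1 followed with 54.1 ± 0.253, NFE2L2 with 26.6 ± 0.297, KEAP1 with 18.5 ± 0.380, GCLC with 17.2 ± 0.224 and GCLM with 13.0 ± 0.289 CPM per kilobase. NQO1 and HMOX1 were low, at 1.30 ± 0.236 and 0.424 ± 0.104 CPM per kilobase. The order was the same in MEF2C-OE libraries, and in neither group did the library ranges of neighbouring genes overlap.

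Among the regulators, the gene of NRF2 rose and that of its inhibitor did not pass the test. NFE2L2 (chromosome 2, 177227595 to 177392697, minus strand, GRCh38) had 74.9, 76.4 and 76.4 CPM in control and 93.9, 90.3 and 90.0 CPM in MEF2C-OE libraries. Every MEF2C-OE library was above every control library. The log2 fold change was 0.27 (SE 0.033, edgeR adjusted p = 5.6e-09), or 1.2-fold. In GENCODE 29, 17.6% of the exon bases of NFE2L2 are shared with the same-strand gene AC019080.1, and reads there may be left uncounted as ambiguous. The share of ambiguous reads differed between the groups, at 3.42% to 3.46% in control and 3.31% to 3.33% in MEF2C-OE libraries, and its part in the result was not tested.

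KEAP1 (chromosome 19, 10486120 to 10503741, minus strand) had 53.7, 55.9 and 54.2 CPM in control and 52.5, 53.1 and 51.6 CPM in MEF2C-OE libraries. All MEF2C-OE values were lower by a small margin. The log2 fold change was -0.06 (SE 0.040, adjusted p = 0.25, edgeR), with a 95% interval of 0.909 to 1.01 for the fold. The sign changed with a correction for gene composition. Fold changes followed GC content in these libraries, with a median log2 fold change of -0.19 for genes in the top decile (at least 61.4% GC) and 0.10 in the bottom decile (at most 38.4%). KEAP1 has 60.3% GC, and after a correction that removed the trend on GC content and transcript length its log2 fold change was 0.14 (adjusted p = 0.0045). NFE2L2, at 45.6% GC, had 0.28 with the trend removed.

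Of the target genes for quinone and haem metabolism, NQO1 rose at a low level and HMOX1 was barely detected. NQO1, which encodes a quinone reductase often used as a readout of NRF2 (chromosome 16, 69706996 to 69726951, minus strand), had 3.23, 4.57 and 3.6 CPM in control and 4.62, 5.28 and 5.48 CPM in MEF2C-OE libraries. The highest control library and the lowest MEF2C-OE library nearly met. The log2 fold change was 0.43 (SE 0.13, edgeR adjusted p = 0.0081), or 1.35-fold from 181 to 313 reads per library. Without control replicate 1 the value was 0.33 and no longer passed (adjusted p = 0.077). An opposite-strand gene, AC092115.2, shares 17.7% of the exon bases of NQO1 and had 2 to 9 reads.

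HMOX1 (chromosome 22, 35380361 to 35394214, plus strand) encodes haem oxygenase 1, which breaks down haem and is repressed by BACH1. Its counts were 54, 31 and 39 reads in control and 13, 22 and 36 reads in MEF2C-OE libraries, or 0.773 ± 0.189 and 0.440 ± 0.197 CPM (SD, n = 3). The groups overlapped, and the log2 fold change of -0.81 did not pass (SE 0.37, edgeR adjusted p = 0.081). The value moved between -1.18 without MEF2C-OE replicate 3, where it passed (adjusted p = 0.029), and -0.51 without MEF2C-OE replicate 1.

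Glutamate-cysteine ligase makes the first and rate-limiting step of glutathione synthesis from a catalytic subunit (GCLC) and a modifier subunit (GCLM). The modifier gene rose and the catalytic gene did not pass the test. GCLM (chromosome 1, 93885205 to 93909456, minus strand) had 62.4, 62.3 and 64.8 CPM in control and 77.4, 77.4 and 75.8 CPM in MEF2C-OE libraries. These groups did not overlap, with a log2 fold change of 0.28 (SE 0.035, edgeR adjusted p = 9.4e-09), or 1.22-fold. After the GC and length correction the value was 0.17 (adjusted p = 1.5e-04), and GCLM has only 37.3% GC.

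GCLC (chromosome 6, 53497341 to 53616970, minus strand) had 66.7, 65.2 and 65.2 CPM in control and 62.9, 61.7 and 65.9 CPM in MEF2C-OE libraries. The groups overlapped through MEF2C-OE replicate 3. The log2 fold change was -0.05 (SE 0.037, edgeR adjusted p = 0.32), and the 95% interval of the fold was 0.919 to 1.02, below the 1.22-fold of GCLM. The ratio of GCLC to GCLM reads, which does not depend on library scaling, was 1.07, 1.05 and 1.01 in control and 0.813, 0.797 and 0.870 in MEF2C-OE libraries. The mean log2 ratio differed by -0.33 (exact permutation test, two-sided, p = 0.1, the smallest that 3 against 3 allows). After the GC and length correction the difference was -0.25.

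TXNRD1 (chromosome 12, 104215779 to 104350305, plus strand) encodes the cytosolic selenoprotein that returns thioredoxin to its reduced form. Its level was 211.5, 213.1 and 213.4 CPM in control and 220.3, 225.8 and 220.7 CPM in MEF2C-OE libraries. The groups did not overlap, but the log2 fold change was only 0.06 (SE 0.024, edgeR adjusted p = 0.030). It lost its call without any 1 control library or without MEF2C-OE replicate 2, with upper-quartile scaling, without a count filter, and after the GC and length correction (0.02, adjusted p = 0.50).

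SRXN1 encodes sulfiredoxin, which repairs over-oxidised peroxiredoxins. It had 0 reads in every library. In GENCODE 29, 85.0% of its 2698 exon bases (chromosome 20, 646615 to 653370, minus strand) are shared with exons of the same-strand gene AL121758.1, which also had 0 reads. Reads in such shared exons can be left uncounted as ambiguous. In the shared part the zeros therefore set no upper limit on the expression of SRXN1. The exon bases outside the shared part also had no counted read. The annotation used for counting is not stated, so its shared part may differ from that of GENCODE 29.

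The ferritin genes moved in opposite directions. FTH1, the heavy subunit with ferroxidase activity (chromosome 11, 61959718 to 61967660, minus strand), had 1005.2, 1064.9 and 1032.7 CPM in control and 1093.7, 1075.7 and 1099.7 CPM in MEF2C-OE libraries. The MEF2C-OE values were all higher, although the gap between the groups was smaller than the range of the controls, with a log2 fold change of 0.08 (SE 0.021, edgeR adjusted p = 0.0033). Without control replicate 1 the value was 0.05 and did not pass (adjusted p = 0.051). FTL, the light subunit that supports the iron core (chromosome 19, 48965301 to 48966878, plus strand), had 561.1, 569.8 and 564.1 CPM in control and 454.1, 443.5 and 458.3 CPM in MEF2C-OE libraries.

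The FTL groups were well apart. The log2 fold change was -0.32 (SE 0.021, edgeR adjusted p = 3.0e-16), which is 0.8 of the control level, and it was -0.19 after the GC and length correction (adjusted p = 1.4e-10). The ratio of FTH1 to FTL reads was 1.79, 1.87 and 1.83 in control and 2.41, 2.43 and 2.40 in MEF2C-OE libraries. The mean log2 ratio differed by 0.40 (exact permutation test, two-sided, p = 0.1, the smallest possible), and by 0.30 with the trend removed.

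**Figure D2:**
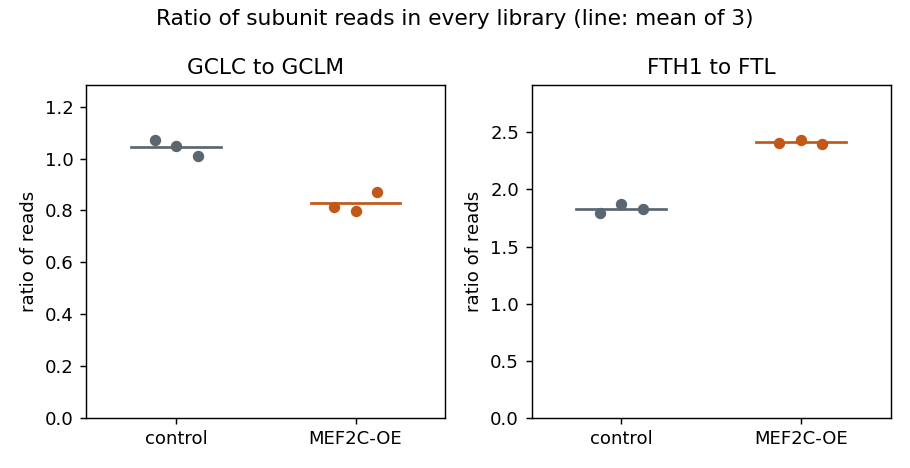
Ratio of reads of the catalytic to the modifier subunit gene of glutamate-cysteine ligase (GCLC to GCLM, left) and of the heavy to the light ferritin subunit gene (FTH1 to FTL, right), vertical axes from 0; points are libraries and lines are means of 3. In MEF2C-OE libraries the first ratio lies between 0.797 and 0.870, below all controls, and the second between 2.40 and 2.43, above all controls.

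Ferritin levels are uncertain for reasons of counting. Both genes have many processed pseudogenes, and reads that align to several places were not counted. Such reads made up 4.23% to 4.68% in control and 4.03% to 4.05% in MEF2C-OE libraries, and their part in the ferritin results was not tested. The 25 FTH1P genes listed held 180 to 244 reads per library in sum, or 0.322% to 0.423% of FTH1 reads, and the 16 FTLP genes held 10 to 23 reads. FTH1P23 and FTH1P20 had the most reads of the first kind, 324 and 268 over the 6 libraries, and FTLP3 of the second, with 95, followed by FTLP2 with 1. FTH1 also shares 62.4% of its annotated exon bases with BEST1 on the opposite strand, and the sources used here do not state whether counting used strand. BEST1 had 527 to 1017 reads per library, against at least 52322 for FTH1.

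The reference for these changes was SLC7A11, which had 97.0, 94.8 and 92.8 CPM in control and 206.4, 207.7 and 208.6 CPM in MEF2C-OE libraries. Its rise was 2.19-fold (log2 fold change 1.13, SE 0.027, edgeR adjusted p = 1.9e-30), and 0.92 on the log2 scale after the GC and length correction. It was 1 of 22 genes called at least 2-fold higher with a mean of 5 CPM or more. SLC3A2, the heavy chain that pairs with xCT at the membrane, rose from 328.6 ± 6.61 to 349.3 ± 7.71 CPM (SD, n = 3), by 0.09 on the log2 scale (adjusted p = 0.0020), and its value was 0.26 with the trend removed. No rise among the 9 tested genes came near that of SLC7A11. The log2 fold change of NQO1 was 38.3% of it, that of GCLM 25.1%, that of NFE2L2 23.8%, that of FTH1 6.68% and that of TXNRD1 5.66%.

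**Figure D3:**
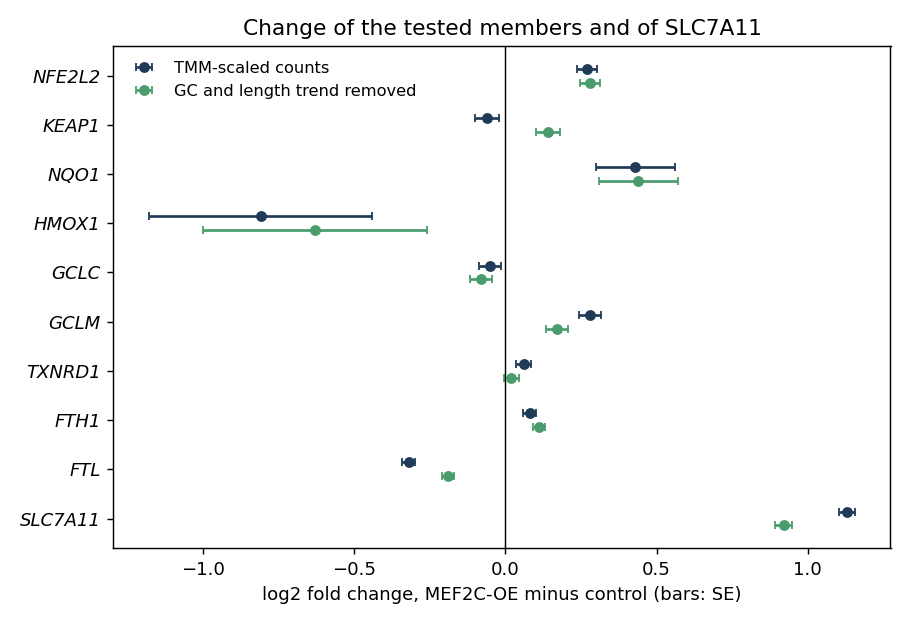
Log2 fold change of MEF2C-OE against control (horizontal axis) for the 9 tested genes and SLC7A11, from TMM-scaled counts (dark blue) and with the trend on GC content and transcript length removed (green); bars are standard errors from the edgeR fit. SLC7A11 lies at 1.13 and 0.92, to the right of all other genes, and KEAP1 changes sign, from -0.06 to 0.14.

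Around these genes, 6 lists of redox and iron genes were counted in the same fit. Of their 102 tested genes 26 rose, 40 fell and 36 did not pass, with a median log2 fold change of -0.06. The 26 include SLC7A11, the reference itself, and its partner SLC3A2. The higher genes made up 25.5% of the lists and 20.8% of all genes tested, and the lower genes 39.2% and 20.2%. These shares of all genes depend on the count filter. Among the 14025 genes with at least 1 CPM in 3 libraries, 3777 were called higher and 3807 lower. The 3777 are a larger share of these genes than the 25.5% of the lists, and the 3807 a smaller share than the 39.2%. The share of higher genes in the lists was therefore not above that of genes at this level. Under that filter 26 list genes were called higher and 44 lower. After the GC and length correction, 21 of the 102 were called higher and 32 lower, against 19.7% and 18.3% of all genes. Listed genes that were not tested had at most 8 reads in any library, among them the NRF2 targets ME1, PIR, CBR1 and CBR3 with at most 6, and MSRA, GPX8, GSTM3 and MGST1 with 0. Exons shared with other genes, which can leave reads uncounted, were not examined for these genes.

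Among 14 tested partners of NRF2 and KEAP1, 7 rose, 5 fell and 2 missed the threshold. After the GC and length correction, 3 were called in each direction. MAFK, a small MAF protein that pairs with NRF2, fell from 361.6 ± 14.5 to 259.8 ± 8.49 CPM (SD, n = 3), by 0.48 on the log2 scale (SE 0.026, edgeR adjusted p = 1.9e-18), and its value was -0.28 with the trend removed. MAFF, another small MAF, fell at a low level, from 0.844 ± 0.0754 to 0.427 ± 0.0722 CPM (log2 fold change -0.99, edgeR adjusted p = 0.020), and was singled out after its value was seen. It was not called without control replicate 1 (-0.91), without MEF2C-OE replicate 3 (-0.86) or after the GC and length correction (-0.79). MAFG, the remaining small MAF of the list, did not pass. It had 49.5 ± 1.7 CPM in control and 49.5 ± 2.06 CPM in MEF2C-OE libraries (log2 fold change 0.0, edgeR adjusted p = 0.99). CREBBP, a histone acetyltransferase and coactivator, rose by 0.47 on the log2 scale. NFE2L1, the NRF2-related factor known for proteasome genes, rose by 0.29. DPP3, which competes with NRF2 for KEAP1, had a log2 fold change of -0.30, and -0.11 with the trend removed.

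Of 17 other NRF2 target genes tested, 6 rose, 4 fell and 7 did not pass. The 6 include SLC7A11, the reference itself, and its partner SLC3A2. The shares were 35.3% higher and 23.5% lower, against 20.8% and 20.2% of all genes tested. EPHX1, a microsomal epoxide hydrolase, had 5.54 ± 0.536 CPM in control and 6.72 ± 0.742 CPM in MEF2C-OE libraries (log2 fold change 0.28, edgeR adjusted p = 0.044), groups that overlapped, and 8 of 16 alternatives ended its call. These included leaving out control replicate 1, control replicate 2 or MEF2C-OE replicate 3 (0.19). After the GC and length correction its value was larger, 0.43 (adjusted p = 0.0015, edgeR). AKR1A1, an aldehyde reductase, fell by 0.38 on the log2 scale, and by 0.21 with the trend removed. BLVRB, a biliverdin reductase, had -0.54 (adjusted p = 0.027) at 2.54 ± 0.0887 against 1.75 ± 0.559 CPM. It was no longer called in 5 of 16 alternatives, which included leaving out control replicate 1 or 3, leaving out MEF2C-OE replicate 3 (-0.29) and removing the trend (-0.36).

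Of 20 tested thioredoxin and peroxiredoxin genes, 2 rose, 9 fell and 9 did not pass, with a median log2 fold change of -0.13. Without control replicate 1 only 1 was called higher. PRDX1, the abundant cytosolic peroxiredoxin and a known NRF2 target, had 118.3, 121.9 and 122.9 CPM in control and 87.6, 84.7 and 81.1 CPM in MEF2C-OE libraries. Its fall was 1.43-fold (log2 fold change -0.52, SE 0.032, edgeR adjusted p = 2.4e-17), and its log2 value was -0.47 with the trend removed. SELENOW, a small selenoprotein, fell by 0.58 and GLRX2, a mitochondrial glutaredoxin, rose by 0.53, both on the log2 scale. TXNIP, which binds thioredoxin, had -0.43 (adjusted p = 0.0021), and -0.30 without control replicate 2, where it did not pass (adjusted p = 0.057).

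All 6 peroxiredoxin genes fell, an observation made after their values were seen. Their log2 fold changes lay between -0.52 for PRDX1 and -0.13 for PRDX6. All 6 were called lower, against 20.2% of all genes tested. With the filter of at least 1 CPM in 3 libraries the 6 were again called lower, where 3807 of 14025 genes were, a larger share than 20.2%. Control and MEF2C-OE values were separate in all 6, against 48.8% of all genes. After the GC and length correction 5 of 6 were called lower, with values from -0.47 to -0.08, against 18.3% of all genes. Against the 1.2-fold threshold 1 of the 6 was called, where 10.2% of all genes were called in either direction. TXN, the thioredoxin that TXNRD1 recycles, also chosen after its value was seen, had 93.2 ± 4.14 CPM in control and 77.0 ± 1.62 CPM in MEF2C-OE libraries (SD, n = 3), a fall of 1.21-fold (edgeR adjusted p = 1.1e-08).

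Genes of glutathione synthesis and use also went both ways. Of 19 tested, 4 rose, 7 fell and 8 did not pass. Higher genes made up 21.1% and lower genes 36.8%, against 20.8% and 20.2% of all genes tested. CHAC1, an enzyme that degrades glutathione and is a known ATF4 target, rose 1.88-fold, from 8.25 ± 0.404 to 15.5 ± 0.757 CPM (SD, n = 3; log2 value 0.91, SE 0.082, edgeR adjusted p = 2.0e-12). Over the 16 alternatives its log2 value lay between 0.87 and 1.14, a range that overlaps the 0.92 to 1.15 of SLC7A11. GSTO1, an omega-class glutathione transferase, fell from 26.6, 27.2 and 27.3 CPM in control to 16.8, 16.9 and 17.2 CPM in MEF2C-OE libraries, a change of -0.67 on the log2 scale (adjusted p = 1.9e-12). MGST3, a microsomal transferase, had -0.47 (adjusted p = 0.011) and lost its call without MEF2C-OE replicate 2 (-0.36). GPX1, a glutathione peroxidase, fell by 0.41 on the log2 scale, and by 0.19 with the trend removed.

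Of 9 tested genes listed for superoxide and peroxide removal, 3 rose, 5 fell and 1 did not pass. These were 33.3% higher and 55.6% lower, against 20.8% and 20.2% of all genes tested. The count of 3 fell to 1 with upper-quartile scaling or without control replicate 3, where SESN2 alone kept its call. Not all of the list encode enzymes that remove these molecules, and the genes of largest change named below do not. Of the enzymes, SOD1 (-0.16) and CAT (-0.11) were called lower and SOD2 (0.1) higher, by their log2 fold changes. The CAT groups overlapped. SOD2 (edgeR adjusted p = 0.028) was among the calls lost in those 2 settings, and it had no GC content or length for the trend correction. SESN2, a sestrin induced by stress through ATF4 and NRF2, rose from 67.4 ± 1.03 to 102.4 ± 1.84 CPM (SD, n = 3), by 0.60 on the log2 scale (SE 0.033, edgeR adjusted p = 3.9e-19). Its log2 value lay between 0.59 and 0.78 over the 16 alternatives. CCS, the copper chaperone of SOD1, fell by 0.60, UCP2 by 0.43 and SESN1 by 0.20, all on the log2 scale. With the trend removed CCS had -0.38 and UCP2 -0.23.

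Changes of iron and haem genes were small. Of 23 tested, 4 rose, 10 fell and 9 did not pass, and none was called against the 1.2-fold threshold. In shares, 17.4% were higher and 43.5% lower, against 20.8% and 20.2% of all genes tested. Without control replicate 3, 5 were lower. CISD2 and CISD1, which encode iron-sulphur proteins of the endoplasmic reticulum and mitochondria, rose by 0.33 and 0.25 on the log2 scale, with values of 0.20 for each once the trend was removed. PPOX, of haem synthesis, had -0.30, and -0.09 with the trend removed, which did not pass. AIFM2, a ferroptosis suppressor, had -0.26 (edgeR adjusted p = 0.027) with overlapping groups, and its call was lost without control replicate 2 or 3, without MEF2C-OE replicate 2 or 3 and with the trend removed (-0.13).

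**Figure D4:**
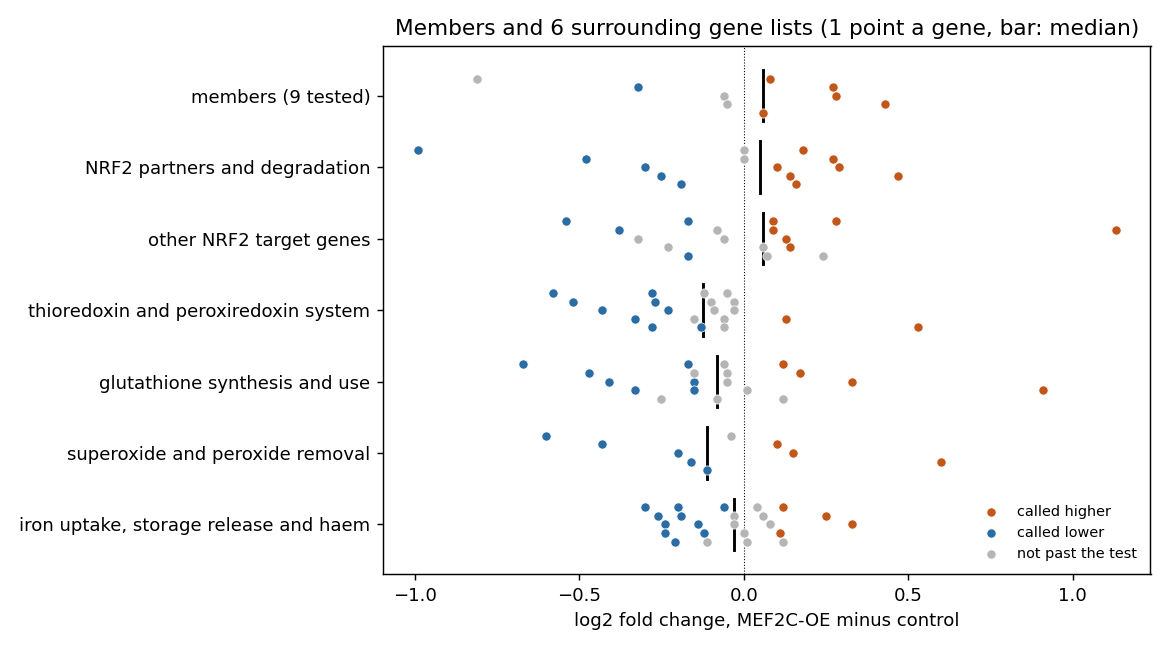
Log2 fold change of MEF2C-OE against control (horizontal axis) for the 9 tested genes and the 102 tested genes of the 6 surrounding lists; each point is a gene, orange where called higher, blue where called lower and grey where not past the test, and black bars are medians. The medians lie between -0.13 for the thioredoxin list and 0.06, and the rightmost points are SLC7A11 at 1.13 and CHAC1 at 0.91.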

How the data were processed

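Each library has a deposited file of raw read counts by gene. Trim Galore, STAR and HTSeq were the authors' tools and hg38 the build, per the submitters' processing notes. The sources used here give no versions, annotation release, counting mode or strand setting. The 5 summary lines of each file were left out. Their shares were separate between control and MEF2C-OE libraries: reads outside features 20.9% to 21.3% against 21.4% to 21.8%, ambiguous 3.42% to 3.46% against 3.31% to 3.33%, and not uniquely aligned 4.23% to 4.68% against 4.03% to 4.05%. Replicate pairs differed by more than counting noise (chi-square per degree of freedom 3.05 to 5.10). Symbols came from a table of gene names, found for 61481 identifiers. Coordinates, GC content and length came from GENCODE 29 (GRCh38, available for 88.8% of tested genes), and promoters from RefSeq (GRCh38.p14).

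Counts were fitted in R 4.3.3 with edgeR 4.0.16 (filterByExpr, TMM, robust quasi-likelihood test, Benjamini-Hochberg over 19086 genes), with calls at adjusted p below 0.05. Standard errors came from the fold change and the F statistic, and 95% intervals are not adjusted. CPM of tested genes are TMM-scaled. The test was checked on simulated counts of 19086 genes, with changed genes drawn at random from all tested genes. Of 50 genes changed at each fold, it recovered 17 at 1.25-fold, 29 at 1.5-fold, 34 at 2-fold and 46 at 4-fold. It called 21 unchanged genes. A gene that did not pass may therefore still have changed.

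The genes and lists were chosen with earlier results of these data known. Named were the 10 genes, SLC7A11, SLC3A2 and MEF2C, up to 4 called genes of largest change per list at a mean of at least 1 CPM, and the 2 ferritin pseudogenes of each kind with most reads. Among list genes given with values, MAFF, MAFG, TXN, SOD1, SOD2, CAT and the peroxiredoxin genes other than PRDX1 were named outside this rule. TRIM16L, which matched more than 1 identifier, was left out. Alternatives covered scaling, count filters, DESeq2 1.42.0, limma-voom (limma 3.58.1), a 1.2-fold threshold, a replicate block, each library left out, and removal of the trend of each library's log2 CPM on GC content and transcript length (splines of 5 degrees of freedom). Figures were drawn with matplotlib 3.10.9.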

Additional observations from a re-analysis of the deposited data

How the results depend on the processing

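NFE2L2, GCLM and FTL kept their direction in every alternative setting, and their calls in all but the 1.2-fold threshold, where NFE2L2 (0.27) and GCLM (0.28) did not pass. That threshold left 1940 of 7821 calls, 937 higher and 1003 lower, with 1 of the 9 genes called, 0 of them higher, and 13 of the 102 list genes, 5 higher and 8 lower. It also ended the calls of NQO1 (0.43), TXNRD1 (0.06) and FTH1 (0.08). KEAP1 reversed to 0.14 with the GC and length trend removed, while GCLC stayed between -0.08 and -0.03 and passed in no setting. TXNRD1 lost its call with upper-quartile scaling (0.05), without a count filter (0.06) and with the trend removed (0.02); the cause was not tested.

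With 1 library left out, 3 to 7 of the 9 genes were called, 2 to 5 higher and 1 to 2 lower. The count of 3, with 2 higher, came without control replicate 1, and that of 2 lower without MEF2C-OE replicate 3. NQO1 lay between 0.33 and 0.59, HMOX1 between -1.18 and -0.51, TXNRD1 between 0.05 and 0.07 and FTH1 between 0.05 and 0.10. With the replicate number as a block, 7798 genes were called, and no call among the 9 genes changed. Same-numbered libraries did not deviate together (correlations 0.00611, 0.0123 and -0.00309), and not every library correlated best with its own number. HMOX1 had no value under the filter of 1 CPM. Depth limits HMOX1 and NQO1, with 13 to 54 and 181 to 313 reads per library.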
